A study of Mus musculus with 22 samples.

Results

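The 3 TGF-beta ligand genes and 7 genes of the mesenchymal transition were followed in tumours of EMT6, a mammary carcinoma line of the mouse. The 10 genes were taken by symbol (TGFB1, TGFB2, TGFB3, SNAI1, SNAI2, TWIST1, ZEB1, ZEB2, CDH2 and VIM) from the 24353 symbols of the expression tables, where each has 1 row. RNA was sequenced from 22 libraries, 12 of cells negative for CD45 and 10 of cells positive for CD45, a surface protein of leukocytes. Of the 10 genes, 9 reached 1 FPKM (fragments per kilobase of transcript and library depth) in at least 2 CD45-negative libraries and were tested there, and CDH2 did not. In the CD45-positive fraction 6 passed, and TGFB2, SNAI2, ZEB1 and CDH2 did not.

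Each BALB/c mouse, 5 to 6 weeks old and labelled wild type, received 200000 EMT6 cells in the left and the right inguinal fat pad. The 5 groups were vehicle, JQ1 (50 mg/kg by daily gavage), JQ1 with anti-PD-L1, JQ1 with paclitaxel, and all 3 drugs, here the 3-drug group. The antibody (clone 10F.9G2) and paclitaxel were given by injection at 10 mg/kg each. JQ1 displaces BET bromodomain proteins from acetylated chromatin, paclitaxel stabilises microtubules, and anti-PD-L1 blocks the ligand of the T cell receptor PD-1. Paclitaxel and the antibody were given only on top of JQ1. The CD45-negative libraries numbered 3 each for JQ1 with paclitaxel and for the 3-drug group and 2 in each other group, and there were 2 CD45-positive libraries per group. Every group without paclitaxel carried 1 mouse code, with a right and a left tumour, so p-values measure spread between tumours, possibly tumours of 1 animal.

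TGF-beta ligands are secreted bound to latency proteins, are released by integrins and proteases, and signal through paired receptor kinases to SMAD transcription factors. In carcinoma cells this pathway is a known inducer of SNAI1, SNAI2, TWIST1, ZEB1 and ZEB2, transcription factors that repress epithelial genes such as the E-cadherin gene. Vimentin, encoded by VIM, and N-cadherin, encoded by CDH2, are the classic structural products of the mesenchymal state, and fibroblasts and macrophages also make vimentin.

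The bead separation left leukocyte transcripts in the CD45-negative fraction. PTPRC, the CD45 gene, had 1.25 to 8.65 FPKM there, compared with 38.6 to 73.6 FPKM among CD45-positive libraries. In the 10 tumours that gave both fractions, 12 pan-leukocyte genes summed in CD45-negative cells to 6.32% to 15% of their sum in CD45-positive cells. KRT8, a keratin of simple epithelium, was abundant in the CD45-negative fraction (278 to 792 FPKM), whereas CDH1, encoding E-cadherin, lay between 0 and 0.818 FPKM and GRHL2 and OVOL2, regulators of epithelial identity, were listed at 0 in all 12 libraries. The collagen gene COL1A1, a fibroblast marker, lay between 151 and 601 FPKM there. In such bulk samples fewer cells of a type and less RNA per cell cannot be told apart. Depth relative to the fraction's mean, read from steps between low values, was 1.79 and 1.13 for the CD45-negative vehicle libraries, 0.554 and 0.653 for JQ1 and 0.547 to 1.58 for the other 8, so depth was partly tied to group.

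The RefSeq promoter table (GRCm38.p6) held 6 of the 10 genes. The 250 bases before the start site are shown for TGFB2, ZEB2 and VIM, which the results turn on, and for SNAI1, the 1 window with the E-box of its own family. Capitals mark TATAAA (the TATA box), CACGTG (the E-box bound by MYC-family factors), CACCTG or its reverse complement CAGGTG (the E-box bound by the SNAI and ZEB factors) and CAGAC or its reverse complement GTCTG (a SMAD-binding element), each searched on both strands. No match overlapped another.
TGFB2 (chr1:186705990-186706239, minus strand): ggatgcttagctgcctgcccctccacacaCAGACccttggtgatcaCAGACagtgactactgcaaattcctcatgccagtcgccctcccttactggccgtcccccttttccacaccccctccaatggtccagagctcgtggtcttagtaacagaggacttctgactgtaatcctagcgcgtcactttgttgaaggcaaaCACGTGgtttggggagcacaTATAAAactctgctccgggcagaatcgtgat
ZEB2, most upstream start (chr2:45117443-45117692, minus strand): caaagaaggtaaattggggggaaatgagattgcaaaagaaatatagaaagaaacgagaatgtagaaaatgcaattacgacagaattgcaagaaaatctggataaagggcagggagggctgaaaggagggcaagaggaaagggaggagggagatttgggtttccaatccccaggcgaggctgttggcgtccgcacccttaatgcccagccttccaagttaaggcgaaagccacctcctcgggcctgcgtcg
SNAI1 (chr2:167537945-167538194, plus strand): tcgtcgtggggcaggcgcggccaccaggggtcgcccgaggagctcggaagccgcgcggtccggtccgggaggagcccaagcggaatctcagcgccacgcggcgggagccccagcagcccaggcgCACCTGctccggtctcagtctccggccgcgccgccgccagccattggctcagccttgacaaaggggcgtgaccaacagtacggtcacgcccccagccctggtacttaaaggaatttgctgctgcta
VIM (chr2:13574061-13574310, plus strand): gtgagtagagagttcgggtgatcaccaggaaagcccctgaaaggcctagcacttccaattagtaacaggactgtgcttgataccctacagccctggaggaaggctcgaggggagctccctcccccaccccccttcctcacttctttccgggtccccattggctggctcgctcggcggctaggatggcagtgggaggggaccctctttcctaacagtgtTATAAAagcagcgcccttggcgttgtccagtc
The TGFB2 window held CACGTG 51 bases and TATAAA 31 bases before the start, with CAGAC at 221 and 204 bases. The VIM window held TATAAA 32 bases before its start and no other motif searched, and the SNAI1 window held CACCTG 126 bases before its start. The ZEB2 window held none of the 4, nor did the TGFB1 window, and that of TWIST1 held TATAAA 126 bases and CAGAC 9 bases before the start. Over 32851 windows of the same length, 12.4% held TATAAA, 6.02% CACGTG, 17.2% CACCTG or CAGGTG, and 42.2% CAGAC or GTCTG. A match describes letters and is not a bound site.

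In the CD45-negative fraction the comparison that called most of these genes was the addition of anti-PD-L1 to JQ1, taken as the mean of both antibody groups against the mean of JQ1 and JQ1 with paclitaxel. ZEB2, TGFB2, ZEB1 and VIM rose and SNAI2 fell, 5 of the 9 genes tested, where 25% of all 10780 genes tested were called at an adjusted p under 0.05 (limma, Benjamini-Hochberg). JQ1 against vehicle called 3 of 9, with TGFB2 and ZEB2 lower and SNAI2 higher, against 14.8% of all genes. JQ1 with paclitaxel against vehicle called 2 of 9, TGFB2 and ZEB1, both lower, against 17.6% of all genes. Against vehicle, limma called none of the 9 in JQ1 with anti-PD-L1 (0.25% of all genes) or in the 3-drug group (1.63%), with 1 and 3 at an unadjusted p under 0.05. The 4 treated groups together against vehicle also called none in limma (7.37% of all genes, 2 of 9 unadjusted), nor did paclitaxel added to JQ1 (3.56%, 3 unadjusted) or the interaction of the antibody and paclitaxel (0.00928%, 1 unadjusted).

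The counts depended on single libraries. For the antibody added, 1 gene was called without JQ1 library 1, 2 without JQ1 with anti-PD-L1 library 2, 3 without JQ1 with anti-PD-L1 library 1 or 3-drug library 1, and 4 to 7 without any of the others. For JQ1 the count was 0 without either vehicle library, 1 without either JQ1 library, either JQ1 with anti-PD-L1 library or 3-drug library 1, and 2 or 3 otherwise. For JQ1 with paclitaxel it was 0 without either vehicle library or JQ1 with paclitaxel library 2 or 3, 2 without either JQ1 library or 3-drug library 3, and 1 otherwise. With 1 value per mouse code limma called 0 of the 9 in all 3 comparisons.

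The median difference of the 9 genes, on the log2(FPKM + 1) scale used throughout, was -0.24 for JQ1, against -0.05 over all genes. It was -0.08 for JQ1 with paclitaxel, against -0.07, and 0.20 for the antibody added, against 0.03. The JQ1 and the JQ1 with paclitaxel libraries stand on opposite sides in these comparisons, as the treated arm against vehicle and as the reference arm for the antibody, so their values for TGFB2, ZEB1, ZEB2 and SNAI2 share data.

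**Figure D1:**
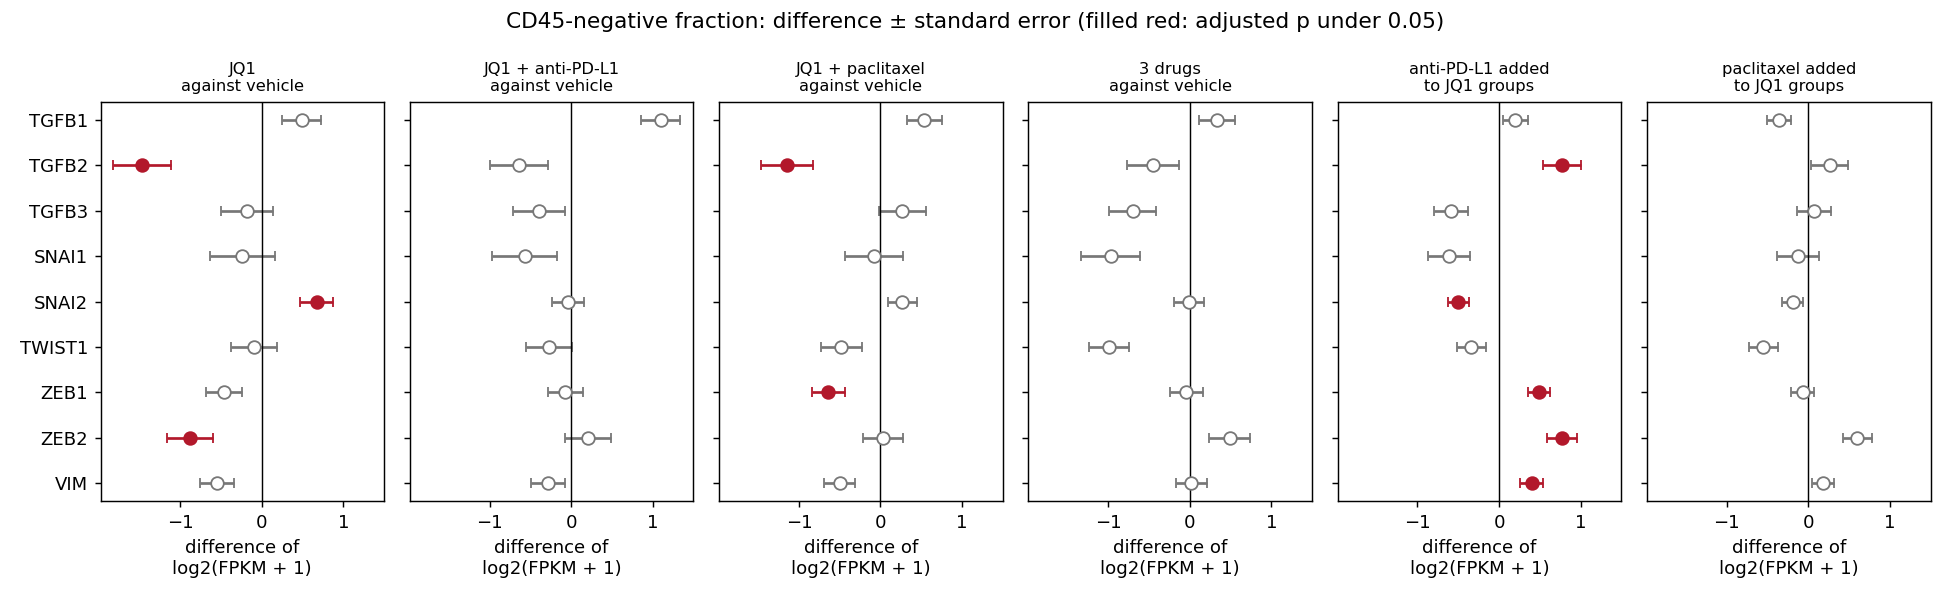
Difference of log2(FPKM + 1) with its standard error for the 9 genes tested in the CD45-negative fraction, in 6 comparisons; filled red points have an adjusted p under 0.05. TGFB2 lies at -1.47 in JQ1 and -1.15 in JQ1 with paclitaxel, and ZEB2, TGFB2, ZEB1 and VIM lie to the right of 0 and SNAI2 to the left where anti-PD-L1 was added.

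Among the ligands, TGFB2 had its highest levels in vehicle. Its CD45-negative values were 7.35 and 8.33 FPKM in vehicle, 1.76 and 2.65 in JQ1, 2.98 and 7.1 in JQ1 with anti-PD-L1, 4.61, 2.16 and 2.57 in JQ1 with paclitaxel, and 5.89, 3.87 and 7.03 in the 3-drug group. All 10 treated libraries were below both vehicle libraries, JQ1 and JQ1 with paclitaxel lay lowest by mean, and the antibody groups lay between, with overlap. TGFB2 fell by 1.47 ± 0.35 (SE) in JQ1 against vehicle (adjusted p = 0.0167) and fell by 1.15 ± 0.32 in JQ1 with paclitaxel (adjusted p = 0.028). The differences were -0.64 ± 0.35 in JQ1 with anti-PD-L1 and -0.45 ± 0.32 in the 3-drug group, neither called (adjusted p = 0.436 and 0.454). With the antibody added TGFB2 rose by 0.77 ± 0.23 (adjusted p = 0.0265), although libraries of the 2 arms overlapped. Over the 4 treated groups the difference from vehicle was -0.93 ± 0.27 (adjusted p = 0.0588), which passed without JQ1 with anti-PD-L1 library 2 (0.0268) or JQ1 with paclitaxel library 1 (0.0387).

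The 3 TGFB2 calls rested on single libraries in part. The JQ1 call was lost without vehicle library 1 (adjusted p = 0.0605), vehicle library 2 (0.0956) or JQ1 library 1 (0.133). The JQ1 with paclitaxel call was lost without vehicle library 1 (0.0981) or 2 (0.158), or JQ1 with paclitaxel library 2 (0.0815) or 3 (0.0591). The antibody call was lost without JQ1 library 1 (0.103), JQ1 with anti-PD-L1 library 2 (a difference of 0.51, adjusted p = 0.146), JQ1 with paclitaxel library 2 (0.0523), or 3-drug library 1 (0.0542) or 3 (0.0549). With relative depth as a covariate the TGFB2 differences were -1.37, -1.11 and 0.73 (adjusted p = 0.141, 0.0505 and 0.0585), and without a filter on low values the adjusted p was 0.0533, 0.0804 and 0.0748.

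TGFB1, the ligand made widely by immune and stromal cells, lay higher with treatment without a call. It stood at 9.69 and 8.84 FPKM in vehicle, 16.3 and 11.1 in JQ1, 23 and 19 in JQ1 with anti-PD-L1, 14.7, 16.3 and 11.2 in JQ1 with paclitaxel, and 10.2, 10.8 and 15.4 in the 3-drug group. All 10 treated libraries were above both vehicle libraries, and those of JQ1 with anti-PD-L1 were the highest 2 of the 12. The difference was 0.62 ± 0.18 for the treated groups together (adjusted p = 0.0628) and 1.10 ± 0.24 for JQ1 with anti-PD-L1 (adjusted p = 0.0622). Without JQ1 library 2 or JQ1 with paclitaxel library 3 the first TGFB1 difference passed the threshold (adjusted p = 0.0391 and 0.0401), and without the latter library so did the other (0.0477). Macrophage markers are set beside these values. The sum of 12 such genes was 762 to 1160 FPKM in vehicle and 2091 to 2799 in JQ1 with anti-PD-L1. It was 1072 to 3344 in the other treated groups, which overlapped with vehicle. The sum of 6 platelet genes was 88.1 to 188 FPKM in JQ1 with anti-PD-L1 and 7.9 to 37.2 in all other CD45-negative libraries, with GP6 listed at 0 throughout. Of the 6 platelet genes, 4 passed the filter for testing there. The part of these cells in the TGFB1 values was not tested.

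TGFB3 was the most abundant ligand of the CD45-negative fraction per length, with a median of 23.7 FPKM over 12 libraries, against 12.9 for TGFB1 and 4.24 for TGFB2. Its values were 30.2 and 25.7 FPKM in vehicle, 25.3 and 23.7 in JQ1, 18.7 and 23.7 in JQ1 with anti-PD-L1, 52, 35.5 and 20.8 in JQ1 with paclitaxel, and 13.7, 15.8 and 21.6 in the 3-drug group. The highest 2 libraries were of JQ1 with paclitaxel, whose remaining library lay among the low ones, and all 3 of the 3-drug group were below both vehicle libraries. No comparison called TGFB3. With the antibody added the difference was -0.59 ± 0.21 (adjusted p = 0.055), which passed without JQ1 with paclitaxel library 3 (0.00454) or 3-drug library 3 (0.0376), and with upper-quartile scaling (-0.66, adjusted p = 0.0437). TTLL5 lies on the opposite strand over part of TGFB3 in GENCODE vM21 and was listed at 3.19 to 7.96 FPKM. The counting is not stated to use strand, so reads of the shared stretch cannot be told apart.

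**Figure D2:**
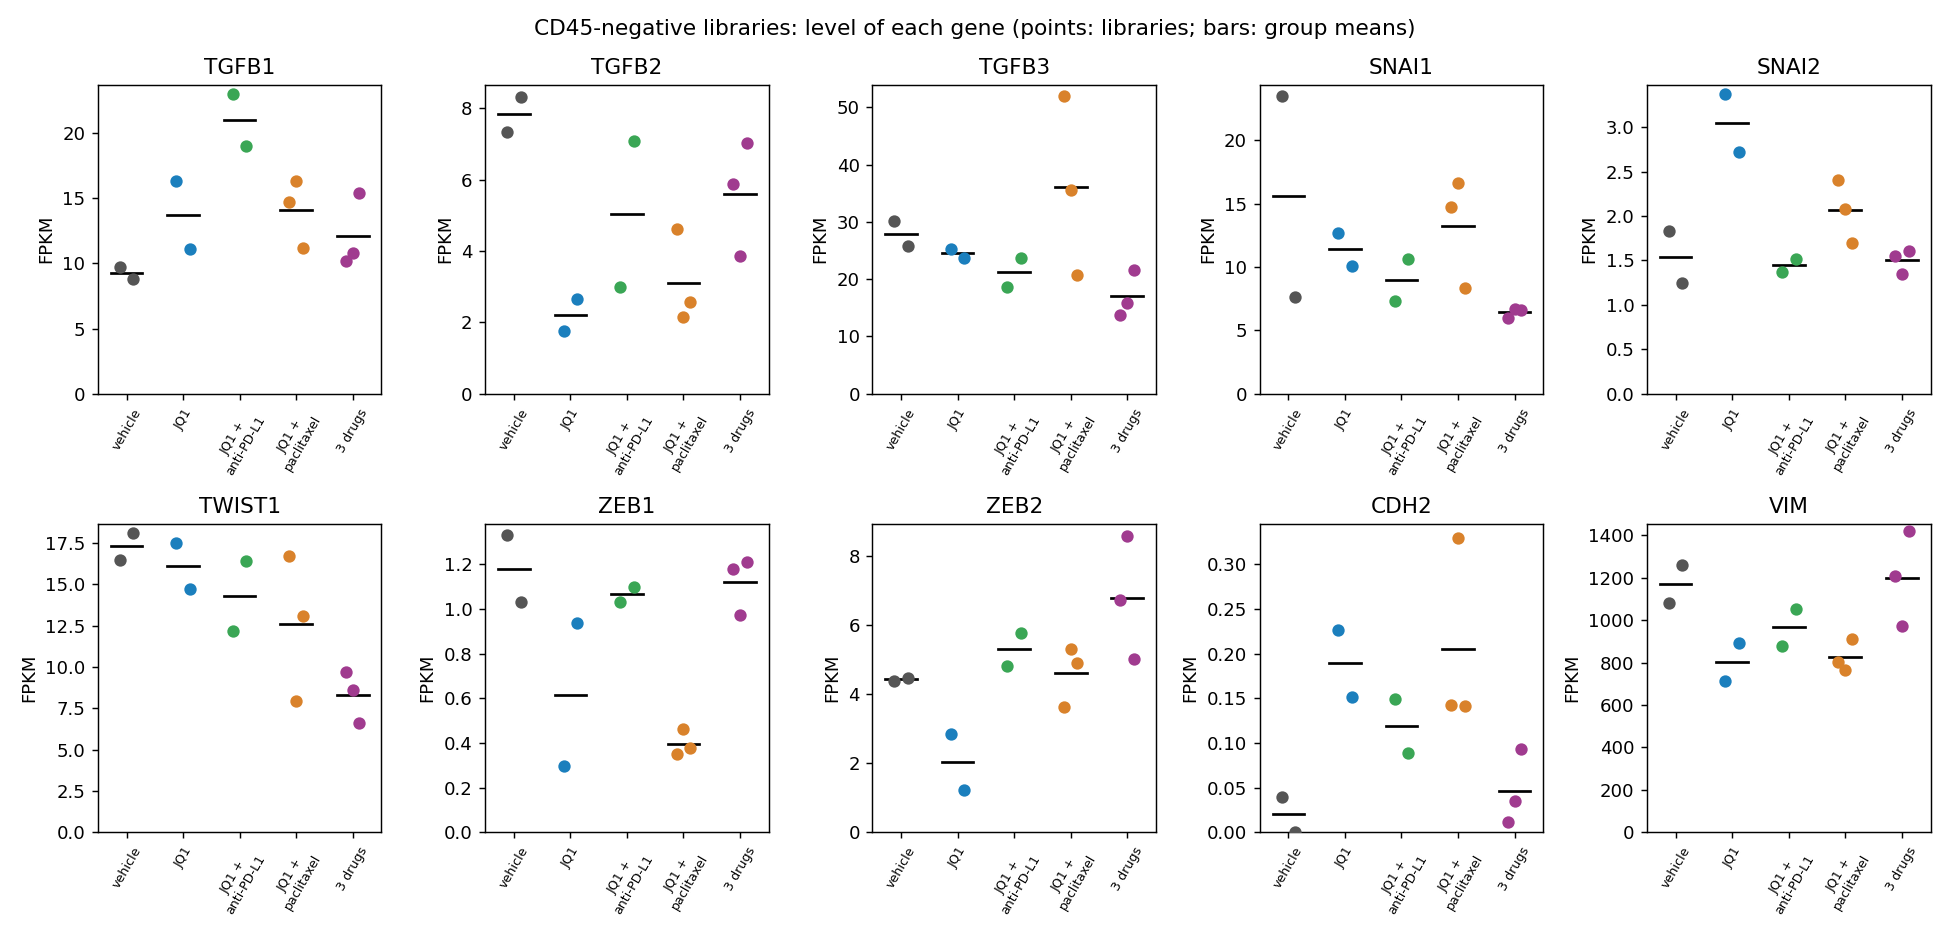
FPKM of the 10 genes in the 12 CD45-negative libraries by group; each point is a library and each bar a group mean, on linear axes from 0. TGFB2 is highest in vehicle (7.35 and 8.33 FPKM), SNAI2 in JQ1 (3.37 and 2.72) and TGFB1 in JQ1 with anti-PD-L1 (23 and 19), while CDH2 lies at or under 0.329 FPKM in every library.

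The zinc-finger homeobox repressors ZEB1 and ZEB2 both rose where the antibody was added to JQ1. ZEB2 stood at 4.38 and 4.48 FPKM in vehicle, 2.86 and 1.24 in JQ1, 4.82 and 5.78 in JQ1 with anti-PD-L1, 3.63, 5.3 and 4.91 in JQ1 with paclitaxel, and 6.74, 8.57 and 5.01 in the 3-drug group. The 2 JQ1 libraries were the lowest of the 12, and in both pairs of groups that differ by the antibody the mean was higher with it (5.3 against 2.05, and 6.77 against 4.61 FPKM). ZEB2 rose by 0.77 ± 0.18 with the antibody added (adjusted p = 0.00791). This call held without each of the 12 libraries in turn and was lost with 1 value per mouse code (adjusted p = 0.0621). ZEB2 fell by 0.88 ± 0.28 in JQ1 against vehicle (adjusted p = 0.0486), a call near the threshold. It held without JQ1 library 1 (a fall of 1.28) or 3-drug library 2 or 3, and was lost without any of the other 9 libraries. Without JQ1 library 2 the ZEB2 difference was -0.49 (adjusted p = 0.275), without vehicle library 1 or 2 the adjusted p was 0.144 and 0.175, and the remaining 6 losses gave 0.051 to 0.0634. It was also lost with upper-quartile scaling (0.0924), with only the groups compared (0.0697), without a filter on low values (0.104) and with relative depth as a covariate (0.116). Paclitaxel added to JQ1 gave 0.60 ± 0.18 for ZEB2, not called (adjusted p = 0.0814).

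The leukocyte markers of the same libraries stand beside the ZEB2 values. The pan-leukocyte sum of the CD45-negative libraries was 401 to 575 FPKM in JQ1 with anti-PD-L1 and 290 to 485 in the 3-drug group, against 220 to 313 in JQ1 and 181 to 496 in JQ1 with paclitaxel, with 213 to 293 in vehicle. Of the 12 pan-leukocyte genes, CD52, ARHGDIB and LCP1 were called higher where the antibody was added. That is 25% of the list, where 25% of all genes were called in either direction and 14% were called higher. All 12 differences were above 0 (median 0.66, against 0.03 over all genes). ZEB2 was 1.29 to 11.3 times as high in the CD45-positive as in the CD45-negative library of the same tumour, whereas TGFB2 was 0.0151 to 0.301 times as high. The part of leukocytes in the ZEB2 values was not tested. ZEB2OS, an antisense transcript of the ZEB2 locus in GENCODE vM21, was listed at 0.435 to 2.19 FPKM in the CD45-negative fraction, and its reads cannot be told apart from those of ZEB2 where they overlap.

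**Figure D3:**
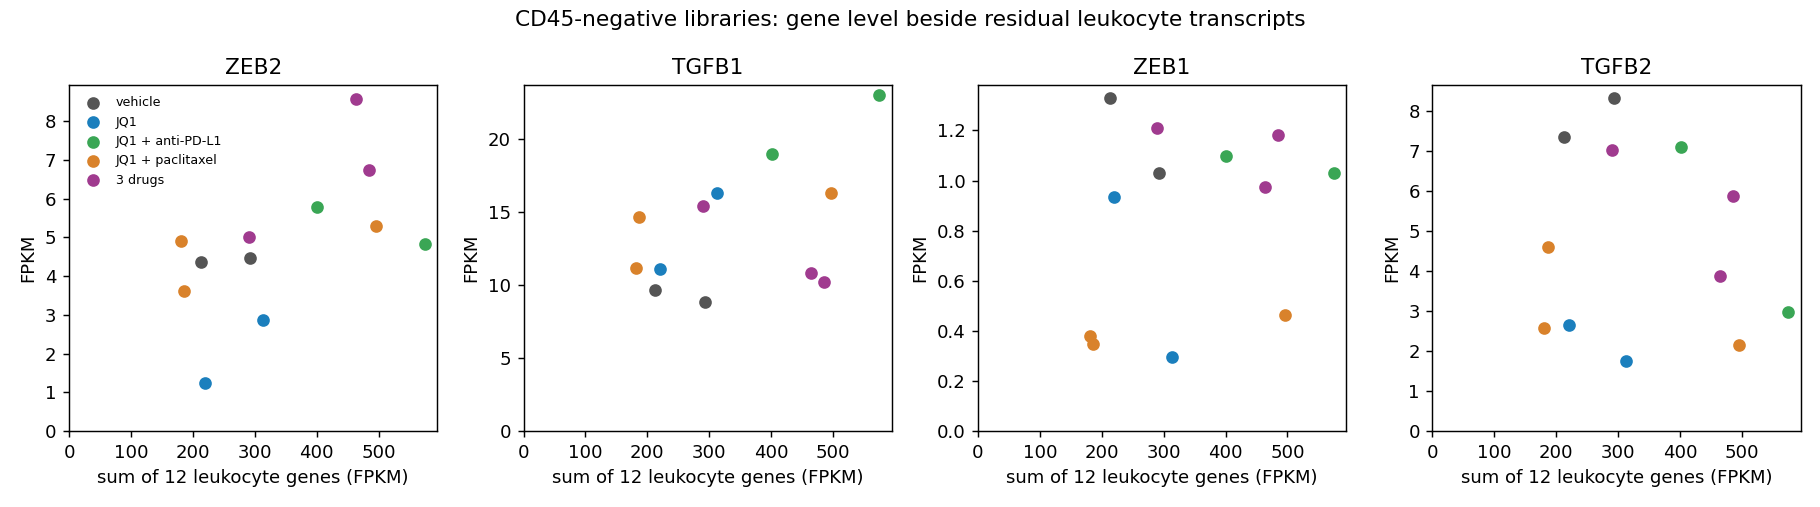
FPKM of ZEB2, TGFB1, ZEB1 and TGFB2 in the 12 CD45-negative libraries against the summed FPKM of 12 pan-leukocyte genes (181 to 575 FPKM); each point is a library, coloured by group. The 2 JQ1 libraries, at sums of 220 and 313, have the lowest ZEB2 values, and vehicle libraries at 213 and 293 have the highest TGFB2 values.

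ZEB1 was the least abundant transcription factor tested. Its values were 1.33 and 1.03 FPKM in vehicle, 0.296 and 0.936 in JQ1, 1.03 and 1.1 in JQ1 with anti-PD-L1, 0.35, 0.464 and 0.378 in JQ1 with paclitaxel, and 1.18, 0.975 and 1.21 in the 3-drug group. The 5 antibody libraries (0.975 to 1.21) were all above the 5 libraries of JQ1 and JQ1 with paclitaxel (0.296 to 0.936), with the gap between them small, and the vehicle libraries lay with the antibody groups. ZEB1 rose by 0.49 ± 0.14 with the antibody added (adjusted p = 0.0217). The call was lost without JQ1 library 1 (a difference of 0.35, adjusted p = 0.0997) or without JQ1 with anti-PD-L1 library 1 (0.0539) or 2 (0.0728).

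In JQ1 with paclitaxel ZEB1 fell by 0.64 ± 0.20 against vehicle (adjusted p = 0.0412), with no overlap of the libraries. This call held without JQ1 library 1 or 2 or 3-drug library 3 and was lost without any of the other 9. Without vehicle library 1 or 2 the adjusted p for ZEB1 was 0.225 and 0.118, without JQ1 with paclitaxel library 1, 2 or 3 it was 0.0979, 0.0692 and 0.0761, and the other 4 gave 0.05 to 0.0553. It was also lost with only the groups compared (0.057), with upper-quartile scaling (0.0633) and with relative depth as a covariate (0.0685). In JQ1 against vehicle the ZEB1 difference was -0.46, not called (adjusted p = 0.172). At about 1 FPKM the added pseudocount of 1 shrinks these differences: with 0.1 the JQ1 with paclitaxel difference was -1.36 (adjusted p = 0.0478).

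SNAI2, the zinc-finger repressor also called Slug, went opposite to the ZEB genes. It stood at 1.83 and 1.25 FPKM in vehicle, 3.37 and 2.72 in JQ1, 1.37 and 1.52 in JQ1 with anti-PD-L1, 2.41, 2.08 and 1.7 in JQ1 with paclitaxel, and 1.55, 1.35 and 1.61 in the 3-drug group. The 2 JQ1 libraries were the highest of the 12, and the 5 antibody libraries (1.35 to 1.61) were all below the 5 libraries of JQ1 and JQ1 with paclitaxel (1.7 to 3.37), within the span of vehicle. SNAI2 fell by 0.50 ± 0.13 with the antibody added (adjusted p = 0.0138), a call lost without JQ1 library 1 (0.059). It rose by 0.67 ± 0.20 in JQ1 against vehicle (adjusted p = 0.0404). This JQ1 call was lost without JQ1 library 1 (0.23) or 2 (0.0604), vehicle library 1 (0.0645) or 2 (0.252), JQ1 with anti-PD-L1 library 1 (0.0541) or 2 (0.054), or 3-drug library 1 (0.0515). It was also lost with a pseudocount of 0.1 (a difference of 0.95, adjusted p = 0.0514), with only the groups compared (0.0922), without a filter on low values (0.0595) and with relative depth as a covariate (0.2). The antibody call for SNAI2 was kept with a pseudocount of 0.1 (a difference of -0.72, adjusted p = 0.0174).

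SNAI1 and TWIST1 were lowest in the 3-drug group without a call. SNAI1, the founding Snail repressor, stood at 23.5 and 7.64 FPKM in vehicle, 12.7 and 10.1 in JQ1, 7.35 and 10.6 in JQ1 with anti-PD-L1, 14.7, 16.6 and 8.37 in JQ1 with paclitaxel, and 5.98, 6.68 and 6.58 in the 3-drug group. The 3-drug libraries were the lowest 3 of the 12, but the 2 vehicle libraries lay far apart, and the SNAI1 difference of -0.97 ± 0.36 was not called (adjusted p = 0.165). With the antibody added the SNAI1 difference was -0.61 (adjusted p = 0.101), and it passed without vehicle library 1 (0.029) or 2 (0.0286) or JQ1 with paclitaxel library 3 (0.039), and with only the groups compared (0.0289).

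TWIST1, a basic helix-loop-helix factor of mesoderm, stood at 16.5 and 18.1 FPKM in vehicle, 17.5 and 14.7 in JQ1, 12.2 and 16.4 in JQ1 with anti-PD-L1, 16.7, 7.95 and 13.1 in JQ1 with paclitaxel, and 9.69, 8.61 and 6.59 in the 3-drug group. All 3 libraries of the 3-drug group were below both vehicle libraries, and 1 library of JQ1 with paclitaxel lay among them. The TWIST1 difference of the 3-drug group was -0.99 ± 0.25 (adjusted p = 0.0666), and without JQ1 with paclitaxel library 2 it passed the threshold (0.0354). Paclitaxel added to JQ1 gave -0.55 ± 0.18 for TWIST1, not called (adjusted p = 0.104).

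VIM was the most abundant of the 10 genes by far. It stood at 1082 and 1262 FPKM in vehicle, 711 and 891 in JQ1, 880 and 1052 in JQ1 with anti-PD-L1, 803, 766 and 911 in JQ1 with paclitaxel, and 1207, 973 and 1419 in the 3-drug group. The JQ1, JQ1 with anti-PD-L1 and JQ1 with paclitaxel libraries were all below both vehicle libraries, and 3-drug and vehicle libraries overlapped. VIM rose by 0.40 ± 0.14 with the antibody added (adjusted p = 0.0477). That call held without JQ1 library 2, JQ1 with paclitaxel library 3 or 3-drug library 2 and was lost without any of the other 9, with adjusted p between 0.0586 and 0.185. Of these, JQ1 with anti-PD-L1 library 2 and JQ1 library 1 gave the largest values (0.185 and 0.15). The VIM call was also lost without a filter on low values (adjusted p = 0.114) and with relative depth as a covariate (0.103). The same held with upper-quartile scaling (0.061) and with only the groups compared (0.0588). Against vehicle the VIM differences were -0.55 ± 0.21 for JQ1 (adjusted p = 0.0939) and -0.50 ± 0.19 for JQ1 with paclitaxel (adjusted p = 0.0906), neither called, and the latter passed with only the groups compared (0.0461).

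CDH2 was close to undetected in the CD45-negative fraction. It was listed at 0.0401 and 0 FPKM in vehicle, 0.227 and 0.151 in JQ1, 0.149 and 0.0885 in JQ1 with anti-PD-L1, 0.143, 0.329 and 0.142 in JQ1 with paclitaxel, and 0.0113, 0.0356 and 0.0936 in the 3-drug group. The JQ1, JQ1 with anti-PD-L1 and JQ1 with paclitaxel libraries were all above both vehicle libraries, and those of the 3-drug group overlapped with vehicle. CDH2 was not tested. VIM was therefore high while CDH2, the other structural marker, and CDH1, its epithelial counterpart, were both under 1 FPKM in all 12 libraries.

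Across the 12 CD45-negative libraries some of the genes ran together, which is given as a description since the libraries share groups and depth. Pearson's r of log2(FPKM + 1) was 0.85 for TGFB2 with VIM, 0.79 for VIM with ZEB1, 0.77 for TGFB3 with SNAI1 and 0.71 for TGFB2 with ZEB1. SNAI2 ran opposite to ZEB2 (r = -0.74), VIM (-0.67), ZEB1 (-0.62) and TGFB2 (-0.60). The tested genes whose pattern was most like each, among genes tested with a mean log2(FPKM + 1) of at least 2, were IL13RA1 (r = 0.967) for ZEB2, C2CD2L (0.960) for SNAI2, GPI1 (0.957) for VIM, DUT (0.954) for ZEB1 and DUS3L (0.943) for TGFB2. For the genes without a call the values were lower: KHSRP (0.912) for TGFB1, IER5L (0.889) for TWIST1, JUP (0.883) for TGFB3 and ZFP512 (0.864) for SNAI1. The second most alike genes were CDC42EP4 (0.929), FBXO38 (0.928), SYS1 (0.954), SPC24 (0.947) and LGALS7 (0.941) for the first set, and EPN1 (0.911), SMAP1 (0.878), PRICKLE1 (0.871) and KIF1BP (0.854) for the other.

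The same 10 genes were then read in the CD45-positive fraction, whose table was normalized separately, so levels set across the fractions carry that limit and no test. TGFB1 and ZEB2 were higher in the CD45-positive library in all 10 tumours with both fractions, by a median of 2.66 and 3.59 times. TGFB2, TGFB3, SNAI1, SNAI2, TWIST1 and VIM were lower there in all 10, and VIM least so (a median of 0.538 times). The medians for the other 5 were 0.0346 times for TGFB2, 0.102 for TGFB3, 0.0415 for SNAI1, 0.085 for SNAI2 and 0.0757 for TWIST1. Fibroblast markers in the CD45-positive libraries summed to 1.47% to 11% of those in the CD45-negative ones, and the part of such remaining cells in the CD45-positive values of TGFB2, TGFB3, SNAI1, SNAI2 and TWIST1 was not tested. ZEB1 was higher in the CD45-positive library in 3 of 10 tumours (0.216 to 14.4 times).

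**Figure D4:**
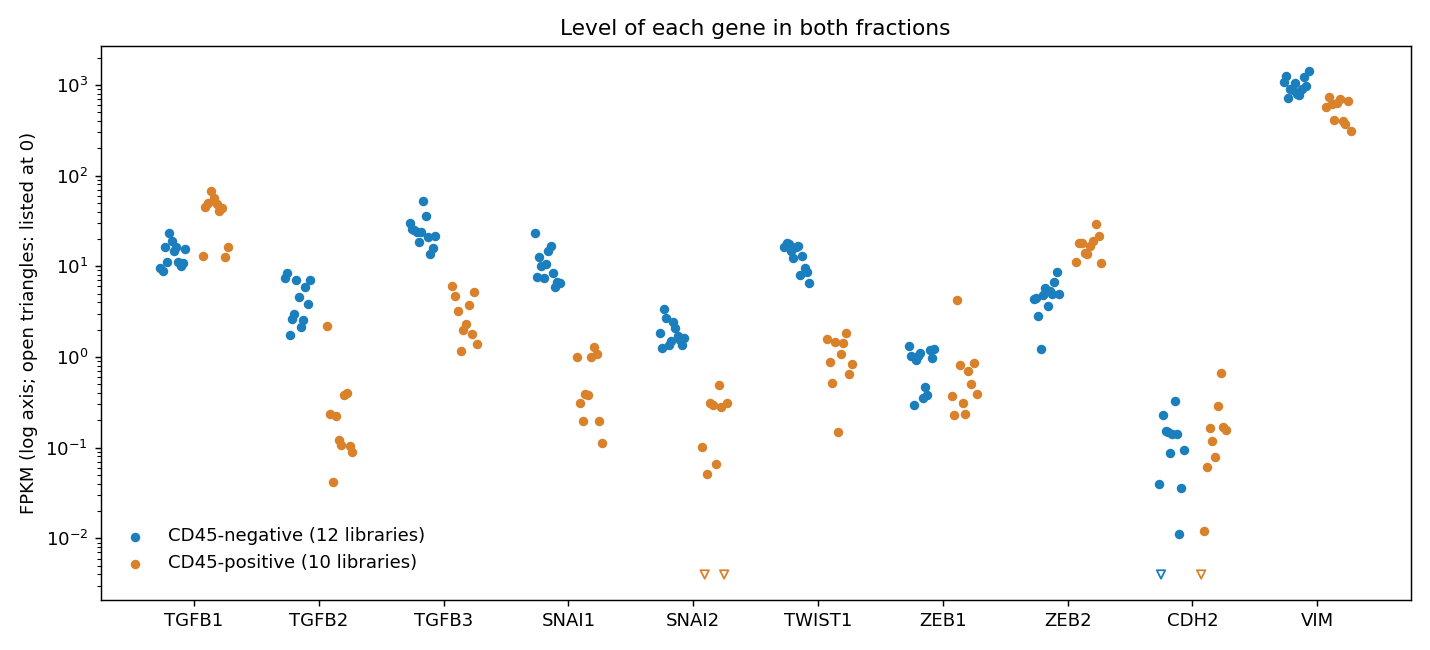
FPKM of the 10 genes on a log axis in the 12 CD45-negative (blue) and 10 CD45-positive (orange) libraries, each point a library; open triangles stand for libraries listed at 0. TGFB1 and ZEB2 lie higher in the CD45-positive fraction (medians 44.6 and 17.3 FPKM, against 12.9 and 4.86), and TGFB2 lies lower (0.173 against 4.24).

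None of the 6 genes tested in the CD45-positive fraction was called by limma in any comparison. The share of all 10340 genes called was 1.04% for JQ1, 0.029% in JQ1 with anti-PD-L1, 4.84% in JQ1 with paclitaxel and 0.135% in the 3-drug group against vehicle. It was 0.822% for the treated groups together, 0.832% for the antibody added, 0.0387% for paclitaxel added and 0% for the interaction. At an unadjusted p under 0.05 there was 1 gene of the 6 in each of these comparisons except JQ1 with paclitaxel and the 3-drug group, which had 0.

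TGFB1 stood at 13 and 45.2 FPKM in CD45-positive vehicle, 49.6 and 68.4 in JQ1, 56.3 and 48.2 in JQ1 with anti-PD-L1, 41 and 44.1 in JQ1 with paclitaxel, and 12.6 and 16.3 in the 3-drug group. The 4 libraries with paclitaxel were all below the 4 treated ones without it, and the vehicle libraries lay far apart. Paclitaxel added to JQ1 gave -1.12 ± 0.33 for TGFB1, not called (adjusted p = 0.338). The 6 platelet genes summed to 45 to 566 FPKM in JQ1, 1035 to 1172 in JQ1 with anti-PD-L1, 68.2 to 186 in JQ1 with paclitaxel and 127 to 317 in the 3-drug group. Only 2 of the 6 passed the filter for testing in this fraction, so the sum does not describe the list as a whole. The part of platelets in these TGFB1 values was not tested.

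ZEB2, which macrophages and other myeloid cells express, stood at 11.2 and 17.9 FPKM in CD45-positive vehicle, 18 and 14 in JQ1, 13.5 and 16.8 in JQ1 with anti-PD-L1, 19.2 and 28.9 in JQ1 with paclitaxel, and 21.5 and 11 in the 3-drug group. JQ1 with paclitaxel lay above both vehicle libraries and the other groups overlapped with vehicle. VIM stood at 567 and 728, 611 and 413, 637 and 694, 404 and 371, and 665 and 312 FPKM in the same order of groups. The JQ1 with paclitaxel libraries of VIM were below both vehicle libraries, and in the 3-drug group library 1 was above library 2 for both VIM and ZEB2.

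TGFB3 stood at 6.1 and 4.73 FPKM in CD45-positive vehicle, 3.18 and 1.17 in JQ1, 1.99 and 2.31 in JQ1 with anti-PD-L1, 3.73 and 1.78 in JQ1 with paclitaxel, and 5.15 and 1.39 in the 3-drug group. Of the 8 treated libraries, 7 were below both vehicle libraries, and the difference of -0.91 over the treated groups was not called (adjusted p = 0.286). SNAI1 lay at 0.112 to 1.3 FPKM and TWIST1 at 0.15 to 1.85, and both were highest by mean in JQ1 with paclitaxel, neither called. Markers of other cell types were highest in that group too. The sum of 10 fibroblast genes was 125 to 218 FPKM in CD45-positive JQ1 with paclitaxel and 32.7 to 97.9 in the other groups, and 3 of the 7 tested were called higher than in vehicle. The sum of 10 endothelial genes was 69.2 to 90.7 FPKM against 4.41 to 30.1, and 9 of 9 were called higher, where 4.84% of all genes were called. The part of these cells in the SNAI1 and TWIST1 values was not tested. The interaction gave -1.28 ± 0.38 for SNAI1, not called (adjusted p = 0.354).

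The 4 untested genes of the CD45-positive fraction were low in nearly every library. ZEB1 stood at 0.369 and 0.232 FPKM in vehicle, 4.26 and 0.826 in JQ1, 0.314 and 0.238 in JQ1 with anti-PD-L1, 0.706 and 0.508 in JQ1 with paclitaxel, and 0.855 and 0.39 in the 3-drug group. JQ1 library 1 stood apart from the other 9, and the sum of 9 T cell markers was 168 FPKM in that library and 7.43 to 53.2 in the others. ZEB1 is expressed in T cells, and the part of T cells in its value was not tested. TGFB2 reached 2.21 FPKM in vehicle library 1 and lay between 0.0416 and 0.4 elsewhere, SNAI2 reached at most 0.487 and CDH2 at most 0.668.

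The other genes of the pathway were taken from lists and read in the CD45-negative fraction over the same comparisons, with the shares of all genes called given above. Their falls against vehicle and rises with the antibody added share the JQ1 and JQ1 with paclitaxel libraries, so the 2 are not independent. Genes named for such a fall were selected on those libraries. Their calls were not checked with libraries left out. In the 4 treated groups together against vehicle, 1 of 10 genes of the latent complex fell, LTBP1, which tethers latent TGF-beta to matrix (list median -0.03, against -0.05 over all genes). Its mean was 27.1 FPKM in vehicle, 14.1 in JQ1, 20.1 in JQ1 with anti-PD-L1, 7.15 in JQ1 with paclitaxel and 18.2 in the 3-drug group. LTBP1 fell by 0.92 ± 0.14 (adjusted p = 0.00401) over the treated groups, fell by 1.80 ± 0.17 in JQ1 with paclitaxel (adjusted p = 6.74e-05), and rose by 0.87 ± 0.12 with the antibody added (adjusted p = 0.000442). With the antibody 4 of the 10 rose, LTBP2, LRRC32 and FURIN beside LTBP1.

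None of the 5 TGF-beta receptor genes was called over the treated groups (median 0.40), and in JQ1 with paclitaxel 2 of 5 rose, the co-receptor genes ENG (1.23 ± 0.34, adjusted p = 0.027) and TGFBR3 (0.64 ± 0.20, adjusted p = 0.046). Of 11 SMADs and their regulators 1 rose over the treated groups (median -0.05), SMAD3, a receptor-activated SMAD, by 0.89 ± 0.20 (adjusted p = 0.0195). Of 8 TGF-beta response genes 2 fell (median -0.77). ACTA2, encoding smooth muscle actin, fell by 0.98 ± 0.19 (adjusted p = 0.0104) and CTGF, encoding a matricellular protein, fell by 1.11 ± 0.26 (adjusted p = 0.0251). ACTA2 went from a mean of 254 FPKM in vehicle to 70.8 in JQ1 with paclitaxel and 108 in the 3-drug group. By single group against vehicle, 0 of the 8 response genes were called in JQ1 and 0 in JQ1 with anti-PD-L1. In JQ1 with paclitaxel 2 were lower and in the 3-drug group 3, and 2 were lower with paclitaxel added to JQ1.

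Other ligands of the superfamily gave no call among 5 over the treated groups (median -0.54). In JQ1 1 of 5 was called. INHBA, the activin A subunit gene, fell by 3.09 ± 0.66 (adjusted p = 0.0101), from a mean of 74.5 FPKM in vehicle to 7.97, and it rose by 1.80 ± 0.43 with the antibody added (adjusted p = 0.00944). In JQ1 with paclitaxel 2 of 5 were called: GDF15 fell by 1.12 ± 0.22 (adjusted p = 0.00531) and BMP4 fell by 1.01 ± 0.31 (adjusted p = 0.042).

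Of 9 other transition transcription factors 3 fell over the treated groups (median -0.15). PRRX2 fell by 0.94 ± 0.15 (adjusted p = 0.00437), TCF4 fell by 0.84 ± 0.16 (adjusted p = 0.00956) and PRRX1 fell by 0.75 ± 0.16 (adjusted p = 0.0164). PRRX1 and PRRX2 are homeobox genes of mesenchyme, and PRRX2 was the 1 pathway gene called lower in each of the 4 treated groups against vehicle. With the antibody added PRRX1 rose by 1.03 ± 0.13 (adjusted p = 0.000344) and TCF4 by 0.54 ± 0.13 (adjusted p = 0.0112), as did TCF3 and HMGA2, while FOXC1 fell. None of 10 other mesenchymal genes was called over the treated groups (median 0.18), and in JQ1 2 of 10 were called. The matrix metalloproteinase gene MMP2 fell by 0.82 ± 0.20 (adjusted p = 0.0193) and MMP14 fell by 0.61 ± 0.16 (adjusted p = 0.0246).

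Of 11 epithelial genes tested 4 fell over the treated groups (median -0.57) and 0 rose. TRP63, encoding the basal factor p63, fell by 1.42 ± 0.18 (adjusted p = 0.00147) and DSP, the desmoplakin gene, fell by 0.82 ± 0.19 (adjusted p = 0.0225). ESRP2, encoding a splicing regulator, fell by 0.63 ± 0.17 (adjusted p = 0.0449) and KRT14, encoding a basal keratin, fell by 1.63 (adjusted p = 0.0453). By single group against vehicle, 5 of the 11 were lower in JQ1 (median -0.91), and 4 were lower and 1 higher in JQ1 with paclitaxel (median -0.63). In JQ1 with anti-PD-L1 (median -0.51) and in the 3-drug group (median -0.05, against -0.07 over all genes) 0 were called. With the antibody added 3 of the 11 were called, 2 higher and 1 lower, against 25% of all genes (list median 0.30): TRP63 rose by 1.18 ± 0.15 (adjusted p = 0.000321), KRT18, encoding the keratin partner of KRT8, rose by 0.90 ± 0.28 (adjusted p = 0.0349), and TJP1, encoding a tight junction protein, fell by 0.52 ± 0.17 (adjusted p = 0.037). The sum of the 20 epithelial genes of the list was 516 to 901 FPKM in vehicle, 308 to 364 in JQ1, 377 to 507 in JQ1 with anti-PD-L1, 353 to 556 in JQ1 with paclitaxel and 547 to 776 in the 3-drug group. In TGFB2, ZEB1 and VIM too, vehicle and the 3-drug group had the highest means. KRT8, at the levels given above, is among the 20 and weighs heavily in their sum, which therefore does not describe the list as a whole.

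**Figure D5:**
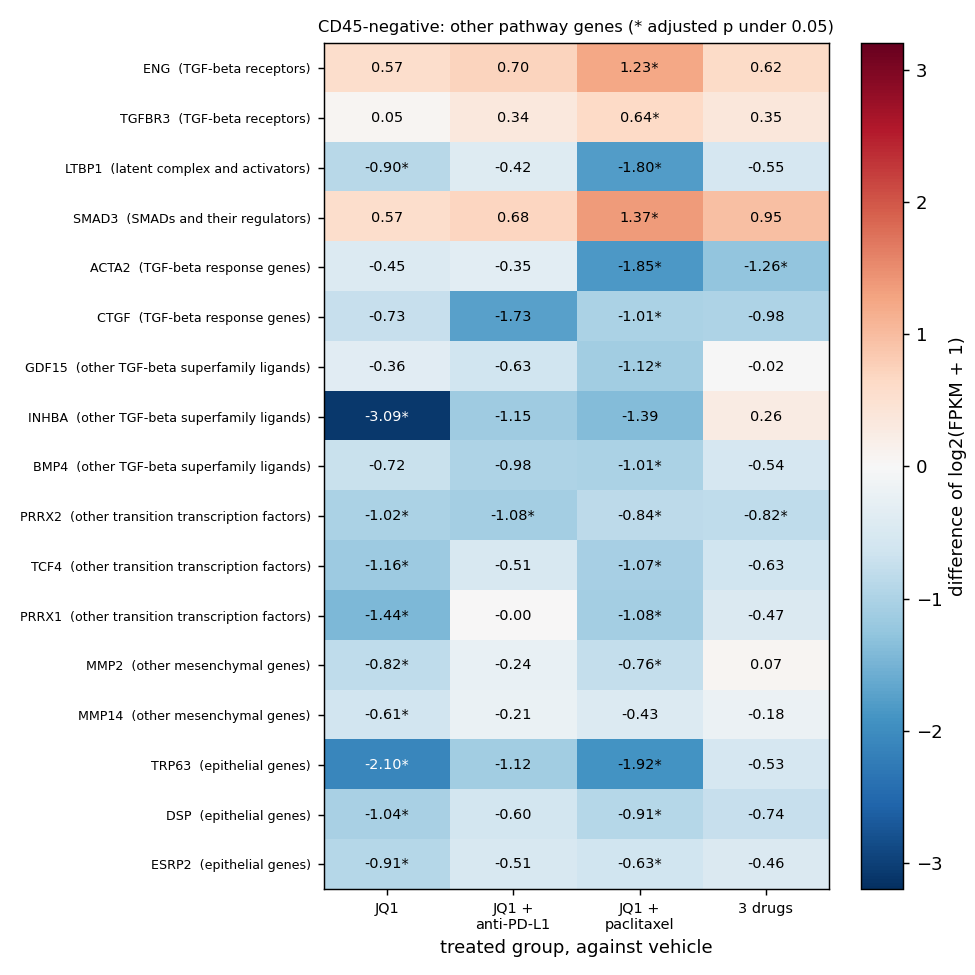
Difference of log2(FPKM + 1) from vehicle in the 4 treated CD45-negative groups (columns) for 17 other genes of the pathway (rows, with their list), red for higher and blue for lower; an asterisk marks an adjusted p under 0.05. INHBA reaches -3.09 in JQ1 and LTBP1 -1.80 in JQ1 with paclitaxel, and PRRX2 carries an asterisk in all 4 columns.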

How the data were processed

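RNA of EMT6 tumours was measured after cells were divided by CD45. Per the labels' protocols, libraries were made with a low-input SMARTer kit from under 10 ng of RNA. Per the submitters' processing notes, STAR 2.5.1b and the mm9 build were used. How gene values were computed is not given in the sources used here. Both deposited tables, 1 per fraction, hold FPKM as the authors made them: the unit was inferred from the values, which have decimals and sum to 296682 to 370513 and 315256 to 364118 per library, although the labels speak of counts. Read totals cannot be had from FPKM, so the precision given is the spread between libraries. Relative depth was read from the steps between values under 0.5 FPKM. Absolute counting error at low levels such as that of ZEB1 and CDH2 was therefore unknown.

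A gene was tested in a fraction where 2 or more libraries had 1 FPKM or more (10780 and 10340 genes). Values of log2(FPKM + 1) went into a limma fit per fraction (limma 3.58.1, R 4.3.3) with all 5 groups and a trend of variance on mean, leaving 7 and 5 residual degrees of freedom. Fold changes are on that scale, which understates the change of low genes. Two-sided p-values were adjusted by Benjamini-Hochberg over all genes of a comparison, with a threshold of 0.05. The fractions were fitted apart and not tested against each other. The members, comparisons and gene lists were chosen with earlier results of these data known. Named pathway genes were up to 3 per list called over the treated groups, or else in a single treated group, smallest adjusted p first, and other genes were named after their values were seen. Likeness was Pearson's r over the 12 CD45-negative libraries among genes with a mean log2(FPKM + 1) of at least 2, clone identifiers passed over. On simulated data, 5 sets of 200 changed genes, the CD45-negative JQ1 comparison found 58.6% of changes of 1 on the log2 scale and 94% of those of 2, while 5.69% of its calls were false (10780 genes). In the CD45-positive fraction these were 25.4%, 74% and 5.33% (10340 genes). Whether these rates hold for genes as low as SNAI2 and ZEB1 was not tested. The same applies to tumours that share a mouse code and to depth tied to group.

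Alternatives were a pseudocount of 0.1, no filter, a mean of at least 5 FPKM, upper-quartile scaling, no trend, 1 value per mouse code, relative depth as a covariate, only the groups compared, and leaving out each library. They were read for the members only, so calls of other pathway genes and of cell type markers were not rechecked. Promoters came from RefSeq (GRCm38.p6), and no gene coordinates of the files' build were used. Overlapping genes were taken from GENCODE vM21 by name. Python 3.11.15 with matplotlib 3.10.9 and pandas 2.3.3 drew the figures.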

Additional observations from a re-analysis of the deposited data

Results flagged for a closer look

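For TGFB1 in the 3-drug group and TWIST1 in JQ1 with paclitaxel, all libraries lay on the same side of the vehicle mean within each fraction. That side was opposite in the 2 fractions. The libraries overlapped with those of vehicle except for TGFB1 in the CD45-negative fraction. The difference between fractions was not tested because the tables were normalized separately. For TGFB1 in the 3-drug group against vehicle, the difference of log2(FPKM + 1) was 0.33 in the CD45-negative fraction, where all 3 libraries lay above the vehicle mean, and -0.73 in the CD45-positive fraction, where both lay below it. The CD45-positive vehicle libraries stood at 13 and 45.2 FPKM, so the mean there rests on libraries far apart. For TWIST1 in JQ1 with paclitaxel against vehicle, the difference was -0.48 among CD45-negative libraries and 0.25 among CD45-positive ones, where levels were 0.889 to 1.85 FPKM. Neither difference was called in either fraction by limma. Fitted differences of opposite sign, without all libraries on such sides of the vehicle mean or against a group other than vehicle, occurred elsewhere too. With the CD45-negative value first, ZEB2 in JQ1 stood at -0.88 (called) and 0.15, TGFB3 in JQ1 with paclitaxel at 0.27 and -0.82, TGFB1 with the antibody added at 0.20 and -0.83, and TWIST1 with paclitaxel added at -0.55 and 0.30. Groups of 2 or 3 libraries are too small for a test of single outlying libraries, and CD45-positive ZEB1 in JQ1 library 1 (4.26 FPKM, against 0.232 to 0.855 in the other 9) was named from its value alone.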

How the results depend on the processing

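In the CD45-negative fraction the number of the 9 tested genes called moved with the processing. JQ1 against vehicle called 3, and 0 without a filter on low values, with 1 value per mouse code and with relative depth as a covariate, and 1 with only the groups compared; leaving out each library in turn gave 0 to 3. JQ1 with paclitaxel called 2, then 1 without a filter and with upper-quartile scaling, 0 with 1 value per mouse code and with the depth covariate, and 0 to 2 with a library left out. The antibody added called 5, then 3 without a filter and with the depth covariate, 0 with 1 value per mouse code, and 1 to 7 with a library left out. With only the groups compared, JQ1 with anti-PD-L1 called 1 (TGFB1, adjusted p = 0.0481) and the 3-drug group 1 (TWIST1, adjusted p = 0.0488), against 0 each. With a library left out, these 2 comparisons and the treated groups together gave 0 to 1. Paclitaxel added and the interaction stayed at 0 under every alternative run, as did all 8 CD45-positive comparisons. The stricter filter left 5 of the genes to test, TGFB1, TGFB3, SNAI1, TWIST1 and VIM. Its counts of 0, 0 and 1 in the first 3 comparisons therefore say nothing of TGFB2, SNAI2, ZEB1 and ZEB2, and the VIM call was kept (adjusted p = 0.0403). An equal count could hide a change of genes. For the antibody added, TGFB3 passed and VIM did not with upper-quartile scaling, and SNAI1 passed and VIM did not with only the groups compared. For JQ1 with paclitaxel, VIM passed and ZEB1 did not with only the groups compared. The cause of the other changes was not tested.

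Of the 2218 values of single genes under alternatives, 2120 stayed on their side of the threshold, 81 lost a call and 17 gained one. Most of the 2218 were not called in the main fit and had no call to lose, so these numbers do not measure how stable the calls were. With a library left out, the losses per call ran from 0 of 12 fits (ZEB2, antibody added) to 9 of 12. The latter held for VIM with the antibody added, ZEB2 in JQ1 and ZEB1 in JQ1 with paclitaxel. Direction was compared only where a value was called in the main or the alternative fit, and 0 of these reversed. Upper-quartile scaling moved the median of all genes by 0.13 in JQ1 and in JQ1 with paclitaxel against vehicle in the CD45-negative fraction, by 0.15 in CD45-positive JQ1 with paclitaxel, and by -0.12 in the CD45-positive interaction. No paired analysis was possible because the labels give no replicate numbers that tie tumours of different groups. Groups of 2 or 3 libraries, vehicle from 1 mouse code and unknown absolute depth limit each value.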
